A study of Rattus norvegicus with 4 samples.

Results

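The genes described here encode a pair of signalling systems used by Schwann cells when they wrap axons with myelin: the LGI proteins with their ADAM receptors, and the adhesion receptor Gpr126. They were chosen by name, as Lgi1, Lgi2, Lgi3, Lgi4, Adam22, Adam23 and Gpr126, and all 7 were among the 30708 genes listed for each library. RNA-Seq was performed on S16 cells, an immortalized rat Schwann cell line that the labels describe as a myelinating Schwann cell. There were 2 populations of unmodified cells, at passage 9 and at passage 39, both grown in flasks in DMEM with 10% serum, and neither carried an engineered allele or received an agent. The passage 9 population was the parental line of edited clones that are not analysed here. Each population gave 2 libraries labelled technical replicates 1 and 2, so that each passage is 1 culture line without biological replicates. For each library the authors deposited RPKM, the reads of a gene divided by its length in kilobases and by the library total in units of 1000000 reads, a scale on which levels of different genes can be compared per length.

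LGI proteins are secreted, and they bind ADAM proteins of the Adam11, Adam22 and Adam23 group, which have lost the protease activity of other ADAMs and act as receptors. In peripheral nerve, Lgi4 is made by Schwann cells and binds Adam22 on the axon, and loss of either delays myelination. Lgi1 is mostly a neuronal protein, known from inherited epilepsy. Gpr126, also named Adgrg6, is a receptor on the Schwann cell itself that couples through Gs to cAMP, and it is needed for Schwann cells to start the myelination program of Oct6 (Pou3f1) and Egr2.

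A cAMP response element is the DNA site bound by Creb1 and its relatives, and its core letters, TGACG, were searched on both strands of the 250 bases before the start of each gene. Promoter sequences from RefSeq (build GRCr8) were matched for 4 of the 7 genes, namely Lgi1, Lgi2, Adam22 and Gpr126. The letters occurred in Gpr126 alone among these, at 204 and 72 bases before its start. Both stretches are shown because Gpr126 signals through cAMP. They lie at chr1:10774062-10774091 and chr1:10773930-10773959, are read along the minus strand, on which the gene lies, and carry the matching letters in capitals (as CGTCA where the match is on the opposite strand).
Gpr126, farther from the start: ggaacctgccgcCGTCAgccgcgcccctgc
Gpr126, nearer to the start: ccagaaagggcgTGACGaagggtcctgcgg
The same letters occurred in 18.2% of 33469 rat promoters of this length, so these are matches of letters and not known binding sites, and the RefSeq gene span reaches farther upstream, so the window may lie within another transcript of the gene. This motif was chosen after the sequences had been seen. The SOX10 monomer letters used in the study (the motif ACAAA, the motif ACACA, the motif ACAAT or the motif ACAAG, on either strand) occurred in 79.6% of promoters and, of these 4 genes, in Lgi1 only, as ACAAT at 249 bases before the start.

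Library totals, which were worked back from the deposited values, lay between 34246093 and 41382234 reads. These totals are larger than the approximate number of reads per cell line stated in the study's methods, the difference could not be resolved from the values, and with fewer reads every counting interval given here would be wider. Of the 7 Schwann cell markers reported here, 6 had a mean of at least 1 RPKM, including Sox10, Ngfr, Erbb3, Foxd3 and S100b, and Cdh19 was at 0.938 RPKM. Summed, these markers were at 1910 to 1923 RPKM in the libraries numbered 1 and at 1868 to 1890 RPKM in those numbered 2, a sum made up mostly of Pmp22 at 1255 RPKM. Taken singly, 4 of the 6 were lower in libraries numbered 2 (adjusted p under 0.05 by limma, the test described with the replicates), namely S100b (86.2 against 32.3 RPKM, -1.39 on the log2 scale), Foxd3 (-0.55), Erbb3 (-0.44) and Ngfr (-0.09). Sox10 (0.06) and Pmp22 (0.08) were called higher, but not under median-ratio scaling. Of all 11025 genes tested 74.1% were called, and 24.4% were called lower. Of 7 neuron markers, 3 reached 1 RPKM (Tubb3, Nefl and Nefm, with a summed list of 194 to 198 RPKM in libraries numbered 1 and 163 to 165 RPKM in those numbered 2), while Syt1 was listed at 0. Singly, Tubb3 was higher in libraries numbered 2 (0.33 on the log2 scale), and Nefl (-0.62) and Nefm (-0.23) were lower. Of 5 fibroblast markers, 2 reached 1 RPKM, Col1a1 at 3588 RPKM and Pdgfra at 5.35 RPKM. The summed list was at 3349 to 3364 RPKM in libraries numbered 1 and at 3778 to 3883 RPKM in those numbered 2. Almost all of this sum was Col1a1, while Col1a2, Lum and Dcn were at 0.339, 0.0534 and 0.0033 RPKM. Endothelial markers summed to at most 0.418 RPKM, mostly Tek at a mean of 0.374 RPKM. Macrophage markers summed to at most 1.62 RPKM, mostly Cd68 at 1.40 RPKM, with Ptprc listed at 0. Melanocyte markers summed to at most 9.19 RPKM, mostly Pmel at 8.72 RPKM, with Tyr listed at 0. The part of these markers in the results was not tested. Libraries with the same number were closer to each other than libraries of the same passage. Over the 11025 genes averaging 1 RPKM or more, values did not overlap between the numbers in 87.7% and between the passages in 6.21%. The SD of the log2 difference between the passages, each averaged over its 2 libraries, was 0.06. Between single libraries numbered 2 and 1 it was 0.34 at passage 9 and 0.33 at passage 39. Averaging can make the SD between passages smaller, so these SDs are not like for like. Each result is therefore given by passage and by number, as the labels have them. Whether the passage and the number were labelled the other way round was not tested and cannot be told from the values. If they were, the passage differences, the number differences and every SD over 2 populations given here would exchange their meaning.

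Lgi4, the ligand of the Schwann cell, was by far the most abundant of the 7 genes. In the passage 9 population its level was 119 RPKM in technical replicate 1 and 92.8 RPKM in technical replicate 2, from 7411 and 4909 reads. In the passage 39 population these levels were 117 and 88.4 RPKM, from 6034 and 5476 reads. Both libraries numbered 1 were higher than both numbered 2, whereas the ranges of the passages overlapped. Such separation by number was common, since it held for 87.7% of the 11025 genes averaging 1 RPKM or more and for 65.7% of the 20333 genes above 0 in at least 1 library, while 6.21% of the former separated by passage. The exact 95% intervals of the single libraries, which cover counting error only, ran from 116 to 121 and from 114 to 120 RPKM for those numbered 1, and from 90.2 to 95.4 and from 86.1 to 90.8 RPKM for those numbered 2. In bulk RNA, fewer cells with a transcript and less of it per cell cannot be told apart. The mean was 104 ± 2.22 RPKM (SD, n = 2 populations), which placed Lgi4 at rank 536 of all genes. Fxyd3, which encodes a small regulator of the sodium pump, overlaps the Lgi4 gene by 379 bp in RefSeq, and reads were counted without strand, so reads of the overlap cannot be assigned. Fxyd3 itself was at 13.4, 11.5, 12.7 and 11.4 RPKM in the same order of libraries.

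Lgi3 was close to the limit of detection. It was at 0.201 RPKM (32 reads) and 0.430 RPKM (58 reads) in technical replicates 1 and 2 of passage 9. At passage 39 it was at 0.114 RPKM (15 reads) and 0.513 RPKM (81 reads). Lgi3, of which the best known site of expression is the brain, was thus higher in both libraries numbered 2, opposite to Lgi4. Its mean was 0.314 ± 0.00151 RPKM (SD, n = 2 populations), and this small SD arose because the high and low libraries averaged to the same level in each population.

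Lgi1 and Lgi2, both best known from neurons, were listed at 0 in all 4 libraries. A listing of 0 allows up to 3 reads in a library, and the gene length needed to turn this into RPKM is unknown where no read was counted. A value of 0 was also listed for 10375 genes in all and for 2 of 64 ribosomal protein genes (Rplp2 and Rps6), so it was not read as absence of the transcript. Lgi4 made up between 99.4% and 99.9% of the summed RPKM of the LGI genes in every library.

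**Figure D1:**
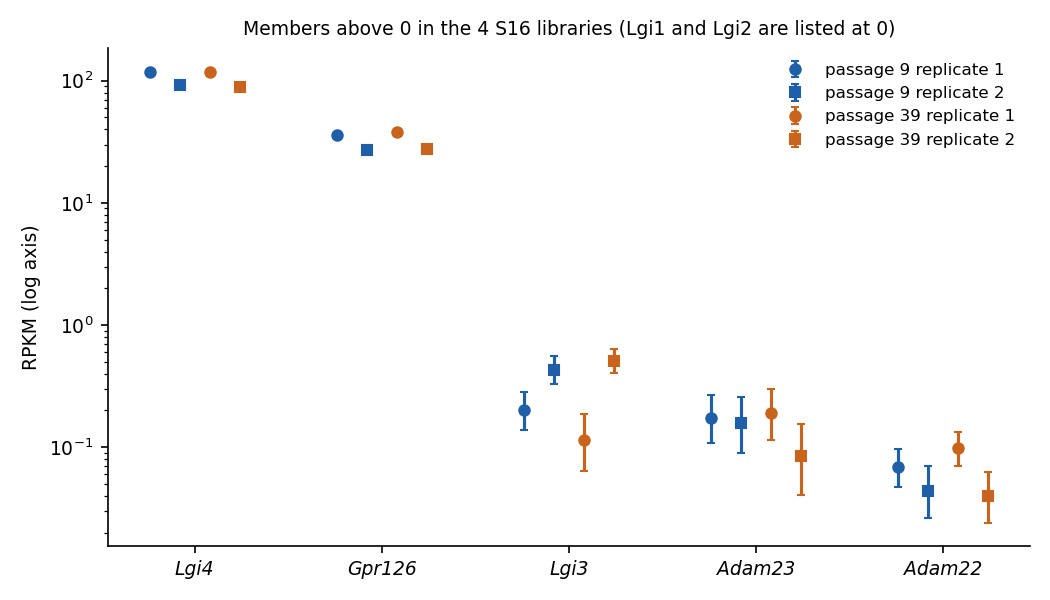
RPKM of the 5 genes above 0 in each of the 4 S16 libraries, on a log axis, with colour for passage, circles for technical replicate 1, squares for technical replicate 2 and bars for the exact 95% interval of the reads. Lgi4 and Gpr126 lie far above Lgi3, Adam23 and Adam22, and for each gene the symbols separate by shape and not by colour, as 65.7% of all genes above 0 do by shape.

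The ADAM receptors were barely detected in the same cells. Adam22, the Lgi4 receptor, was at 0.0687 RPKM (33 reads) and 0.0442 RPKM (18 reads) at passage 9. At passage 39 it was at 0.0981 RPKM (39 reads) and 0.0398 RPKM (19 reads). All 4 values were under 0.1 RPKM, with the libraries numbered 1 above those numbered 2, and the mean was 0.0627 ± 0.00886 RPKM (SD, n = 2 populations). A long non-coding RNA gene, LOC120102223, overlaps the Adam22 gene by 12375 bp in RefSeq and has no value among the deposited genes. Reads were counted without strand, so any reads of this overlap cannot be assigned.

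Adam23, a receptor of LGI proteins that is known mainly from the brain, was at 0.175 RPKM (21 reads) and 0.157 RPKM (16 reads) at passage 9. At passage 39 it was at 0.192 RPKM (19 reads) and 0.0840 RPKM (10 reads). The libraries numbered 1 were again the higher ones, but the 95% intervals of all 4 libraries overlapped, from the lowest of 0.0403 to 0.155 RPKM to the highest of 0.115 to 0.299 RPKM. Its mean was 0.152 ± 0.0202 RPKM (SD, n = 2 populations).

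Adam11, the remaining member of the same receptor group, was the highest of these ADAM receptors at 0.542 ± 0.0246 RPKM (SD, n = 2 populations). Its levels were 0.640 and 0.480 RPKM in the passage 9 libraries, against 0.605 and 0.445 RPKM for passage 39. The LGI receptors lay below the 6 of 9 listed ADAMs with an active protease that averaged 1 RPKM or more. The rest of that list was low as well, with Adam8, Adam28 and Adam33 at 0.304, 0.00258 and 0.00179 RPKM. Adam9 was at 33.2 RPKM, Adam10 and Adam17, which shed membrane proteins such as Notch and neuregulin, at 19.7 and 15.9 RPKM, and Adam12 at 18.4 RPKM. Adam22 ranked 10 of 12 ADAM genes by mean and made up between 0.0374% and 0.0769% of their summed RPKM.

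Gpr126, the receptor of the Schwann cell, was well expressed. It was at 36.0 RPKM (10236 reads) and 27.0 RPKM (6501 reads) in technical replicates 1 and 2 of passage 9. At passage 39 it was at 37.7 RPKM (8865 reads) and 27.6 RPKM (7793 reads). As for Lgi4, the libraries numbered 1 and 2 did not overlap and the passages did. The 95% intervals ran from 35.3 to 36.7 and from 36.9 to 38.5 RPKM for those numbered 1, and from 26.3 to 27.6 and from 27.0 to 28.2 RPKM for those numbered 2. The mean was 32.1 ± 0.821 RPKM (SD, n = 2 populations), at rank 2252 of all genes. Among 26 adhesion receptors, the family of Gpr126, it ranked 2 after Gpr56, which was at 81.8 RPKM and is best known from cortical development and myelinating glia. Gpr126 made up between 14.7% and 18.4% of the summed RPKM of the family, and Lphn2, a latrophilin, followed at 28.8 RPKM.

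**Figure D2:**
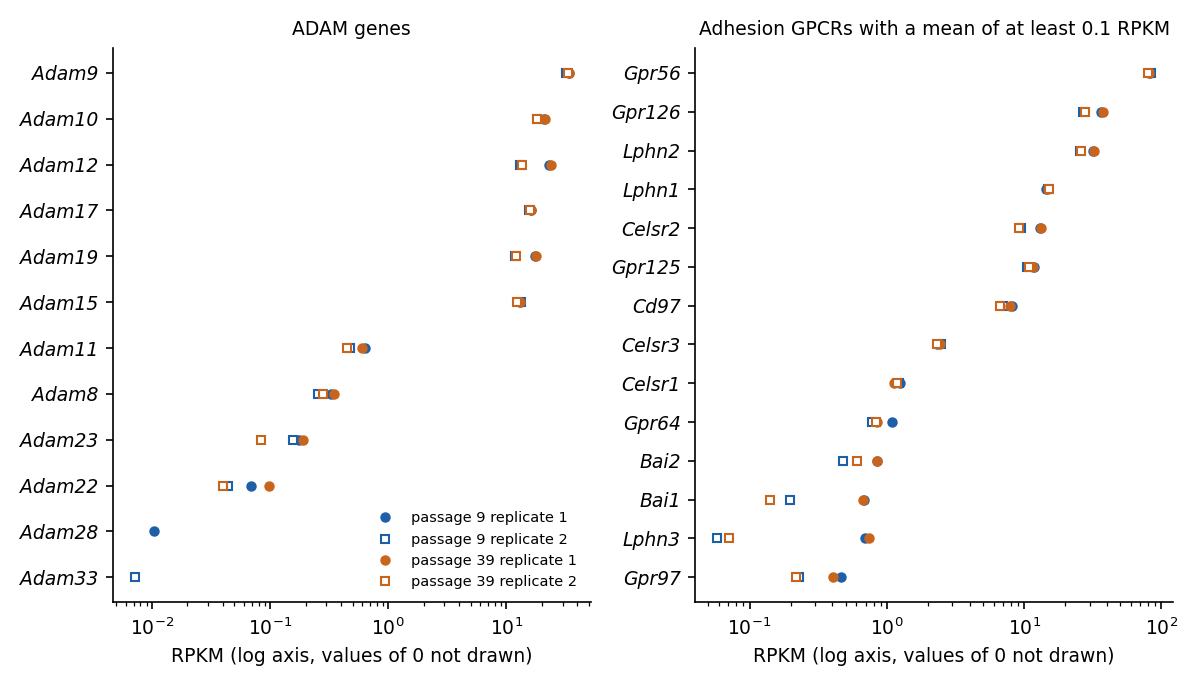
RPKM of 12 ADAM genes (left) and of the adhesion receptors averaging 0.1 RPKM or more (right) in each of the 4 libraries, on log axes, with genes ordered by mean, colour for passage, filled circles for technical replicate 1 and open squares for technical replicate 2. Adam22 and Adam23 lie far below Adam9 at 33.2 RPKM, and Gpr126 is next to the top of its family.

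By mean RPKM the order was Lgi4, Gpr126, Lgi3, Adam23 and Adam22, with Lgi1 and Lgi2 listed at 0. Lgi4 lay above Gpr126 in every library, and Gpr126 above Lgi3. The neighbours Lgi3 and Adam23 did not keep their order, because Lgi3 was lower than Adam23 in technical replicate 1 of passage 39 and their intervals overlapped in both libraries numbered 1. Adam23 was above Adam22 in all 4 libraries, but their intervals overlapped in both libraries of passage 39.

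The comparison of passage 39 with passage 9 asks whether continued culture moved these genes, and it has no test because each passage is 1 population. The mean of Lgi4 was 106 RPKM for passage 9 against 103 RPKM for passage 39, a difference of -0.04 on the scale of log2(RPKM + 1). Within libraries of the same number, the ratio of its reads per total at passage 39 to those at passage 9 was 0.984 (95% counting interval 0.951 to 1.018) for the libraries numbered 1 and 0.953 (0.917 to 0.990) for those numbered 2. Gpr126 had means of 31.5 and 32.7 RPKM, a difference of 0.05 on the same scale. Its ratios were 1.05 (1.02 to 1.08) and 1.02 (0.991 to 1.06). With any 1 library left out, a passage keeps a single number, so the difference between passages then also carries that between the numbers. It ran from -0.26 to 0.14 for Lgi4 and from -0.18 to 0.27 for Gpr126, and for that reason these ranges cannot settle its direction. In all 4 libraries, the passages of both genes lay closer together than the numbered libraries. The difference between passages was -0.0023 for Lgi3, 0.02 for Adam22 and -0.04 for Adam23 on this scale, which understates the change of low genes. Neither Lgi4 nor Gpr126 differed 2-fold between passages on this scale, while 1 of 11025 genes tested (0.00907%) did. That gene, LOC102551208, was above 0 in a single library, at 4.75 RPKM in technical replicate 2 of passage 9. Lgi1, Lgi2, Lgi3, Adam22 and Adam23 were too low to differ 2-fold on this scale, at 0.513 RPKM or less in every library.

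The comparison of the technical replicates shows how far a level of these genes depends on which library was read. It was tested on log2(RPKM + 1) with limma, with the population as a term and Benjamini-Hochberg adjustment over the 11025 genes averaging 1 RPKM or more. The p-values measure only the spread between these 4 libraries, which may be technical. At an adjusted p under 0.05, 8170 genes were called (74.1%), of which 2687 were lower in libraries numbered 2 (24.4% of genes tested). Of the calls, 67.1% were higher in libraries numbered 2, and this share was 53.6% when libraries were scaled by their median ratio. Of the 7 genes, Lgi4 and Gpr126 reached the minimum of 1 RPKM, and both were called lower. With about 3 in 4 genes called, this count is not a result about these genes, and their size of difference is more informative.

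Lgi4 fell by 0.38 on the log2 scale (-0.38, SE 0.02, adjusted p = 1.9e-06 by limma), with -0.35 at passage 9 and -0.40 at passage 39. The ratio of its reads per total in the library numbered 2 to that numbered 1 was 0.781 (95% counting interval 0.753 to 0.810) at passage 9 and 0.756 (0.729 to 0.785) at passage 39. Among the tested genes 7.75% had a lower difference. Genes of similar recovered length to the 1508 bases of Lgi4 had a median difference of 0.22, so Lgi4 lay 0.59 below them on the log2 scale.

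Gpr126 fell by a like amount (-0.42, SE 0.03, adjusted p = 3.1e-06 by limma), with -0.40 at passage 9 and -0.44 at passage 39. The ratio of its reads per total was 0.749 (0.726 to 0.773) at passage 9 and 0.733 (0.711 to 0.756) at passage 39. Of the tested genes 6.36% had a lower difference. Gpr126 is a long gene, with a recovered length of 6867 bases, and genes of that length had a median difference of -0.10, so that Gpr126 lay 0.32 below them. The median over all genes tested was 0.10. Scaled by their median ratio, the libraries gave -0.46 for Lgi4, -0.51 for Gpr126 and 0.03 for the median gene.

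**Figure D3:**
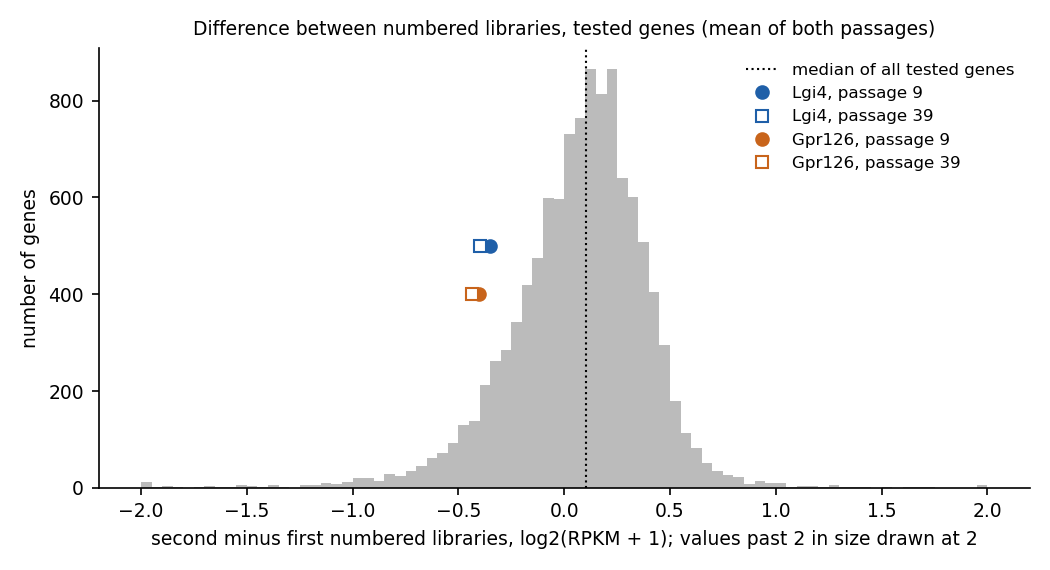
Histogram of the difference between libraries numbered 2 and 1, in log2(RPKM + 1), over the 11025 genes tested (grey, mean of both passages), with the values of Lgi4 and Gpr126 at passage 9 (filled circles) and passage 39 (open squares) placed at arbitrary heights. Both genes lie in the lower tail, between -0.35 and -0.44, and their values at the passages are close together.

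The low genes were tested in a fit without a minimum, over 20333 genes above 0 in at least 1 library. This fit called 8829 of the 20333 genes. Lgi3 was higher in libraries numbered 2 (0.35, SE 0.05, adjusted p = 0.0030 by limma). The ratio of its reads per total was 2.14 (1.37 to 3.40) at passage 9 and 4.50 (2.57 to 8.41) at passage 39. With a pseudocount of 0.1 RPKM the difference of Lgi3 was 1.17. Its direction was opposite to that of the other 4 genes above 0, but was that of 67.1% of the calls in the fit with the minimum.

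Adam22 (-0.06, SE 0.03, adjusted p = 0.13) and Adam23 (-0.08, SE 0.04, adjusted p = 0.14) did not pass this limma test. With a pseudocount of 0.1 RPKM these differences were -0.36 and -0.38. For Adam22 the ratio of reads per total was 0.643 (0.341 to 1.18) at passage 9 and 0.406 (0.222 to 0.720) at passage 39. For Adam23 it was 0.898 (0.438 to 1.81) and 0.439 (0.182 to 0.992). At this depth a difference in the receptors was outside counting error at passage 39, for Adam23 barely, but not at passage 9. With both passages pooled, the ratio of Adam22 was 0.510 (0.334 to 0.769), outside counting error. That of Adam23 was 0.645 (0.378 to 1.08), within it.

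Related genes were taken from lists of each pathway, chosen with earlier results of these data known. The difference varied with gene length, and no list was corrected for length. Over all genes tested, 74.1% were called and 24.4% were called lower. The ligands of Gpr126 are the prion protein Prnp, chains of laminin and chains of collagen IV. Of these, 7 of 10 were tested, of which 6 fell and 1 rose in libraries numbered 2. Their median was -0.32 against 0.10 over all genes, whose lengths may differ from those of the ligands. The laminin alpha chain Lama2 was at 181, 110, 182 and 110 RPKM in the order of passage 9 and then passage 39 (-0.72, adjusted p = 6.4e-08). Its partners Lamb1 (-0.38, adjusted p = 7.0e-07) and Lamc1 (-0.52, adjusted p = 1.6e-07) fell as well. The collagen chains Col4a1 (-0.32, adjusted p = 1.5e-06) and Col4a2 (-0.29, adjusted p = 2.2e-06) and Prnp (-0.16, adjusted p = 5.9e-05) were also lower, and Col4a5 was higher (0.50, adjusted p = 1.8e-05). The 6 ligand genes that fell all had higher levels than Gpr126 itself, from 146 RPKM for Lama2 to 564 RPKM for Col4a1, whereas Col4a3 and Col4a4 were listed at 0. Summed, the list was at 2270 to 2280 RPKM in libraries numbered 1 and at 1760 to 1783 RPKM in those numbered 2.

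Downstream of Gpr126, 10 of 17 genes of Gs and cAMP signalling were tested, of which 3 rose, 5 fell and 2 did not pass, with a median of -0.10. Gnas, the Gs alpha subunit, was at 100.4 RPKM and rose (0.32, adjusted p = 3.2e-06). The adenylyl cyclases Adcy1 (-0.70, adjusted p = 8.7e-07), Adcy5 (-0.33, adjusted p = 9.5e-05) and Adcy6 (-0.14, adjusted p = 0.0032) fell, as did Creb1 (-0.29, adjusted p = 0.0022) and the protein kinase A regulatory subunit Prkar1a (-0.19, adjusted p = 6.8e-05). Of the other regulatory subunits, Prkar2b rose (0.47, adjusted p = 6.9e-06), and Prkar2a rose (0.13, adjusted p = 0.0034) but lost the call under median-ratio scaling (adjusted p = 0.19). The catalytic subunits Prkaca (0.03, adjusted p = 0.31) and Prkacb (-0.07, adjusted p = 0.14) did not pass, although Prkacb did when the libraries were scaled by their median ratio. Gpr126 was at 32.1 RPKM, and the tested cyclases Adcy6, Adcy1 and Adcy5 were at 20.8, 20.2 and 9.80 RPKM. The other cyclases of the list ran from 0.00955 RPKM for Adcy7 to 0.914 RPKM for Adcy9. Which cyclase acts with Gpr126 in these cells was not tested.

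Of the 7 Schwann cell myelination genes reported here, 6 were tested, of which 3 fell and 3 rose. Because genes were left out of this list, no median is given for it. Among the myelin genes, Mbp (-0.76, adjusted p = 1.4e-07), Prx (-0.51, adjusted p = 5.3e-06) and Mag (-0.37, adjusted p = 2.0e-06) fell. Of the transcription factors on which Gpr126 signalling acts, Egr2 rose (0.73, adjusted p = 1.5e-06), from 5.90 and 6.21 RPKM in libraries numbered 1 to 10.5 and 11.0 RPKM in those numbered 2, and Pou3f1 was below the minimum at 0.148 RPKM. Pmp22 (0.08, adjusted p = 0.0018) and Sox10 (0.06, adjusted p = 0.025) rose slightly, but turned to -0.01 and -0.03 under median-ratio scaling and no longer passed. The difference of Lgi4 was close to that of Mag and smaller in size than that of Prx and Mbp. The test of a difference between these genes was not made.

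Of 11 partners of the LGI complex, 4 were tested, of which 3 rose and 1 did not pass, with a median of 0.15. The scaffold genes Dlg1 (0.12, adjusted p = 0.0030) and Dlg4 (0.18, adjusted p = 0.0051) rose but lost the call under median-ratio scaling (adjusted p = 0.34 and 0.077), Dlg3 did not pass (-0.05, adjusted p = 0.39), and Rtn4r, the Nogo receptor, rose (0.45, adjusted p = 7.0e-05). The potassium channel genes Kcna1, Kcna2 and Kcna4, whose proteins join Adam22 and Lgi1 at the axon, were at most 0.0226 RPKM in any library.

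Of 9 other ADAM genes 6 were tested, with a median of -0.13. Adam12 (-0.76, adjusted p = 3.9e-07), Adam19 (-0.53, adjusted p = 3.0e-06) and Adam10 (-0.20, adjusted p = 0.00040) fell, while Adam9, Adam15 and Adam17 did not pass, although they did under median-ratio scaling. Of 27 other adhesion receptors 25 were matched and 8 tested, with a median of -0.06. Celsr2 (-0.46, adjusted p = 1.3e-05), Lphn2 (-0.30, adjusted p = 2.1e-05), Cd97 (-0.21, adjusted p = 0.0019) and Gpr125 (-0.13, adjusted p = 0.015) fell. Gpr56 did not pass (0.02, adjusted p = 0.49) and turned to -0.07 with an adjusted p of 0.023 under median-ratio scaling, and Lphn1, Celsr1 and Celsr3 did not pass and also turned direction. On the scale of log2(RPKM + 1), no gene of these lists differed 2-fold between passages, and the largest such difference was that of Rtn4r (-0.22), but this scale hides ratios of genes far below 1 RPKM, such as Adcy2 at a mean of 0.0175 RPKM.

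**Figure D4:**
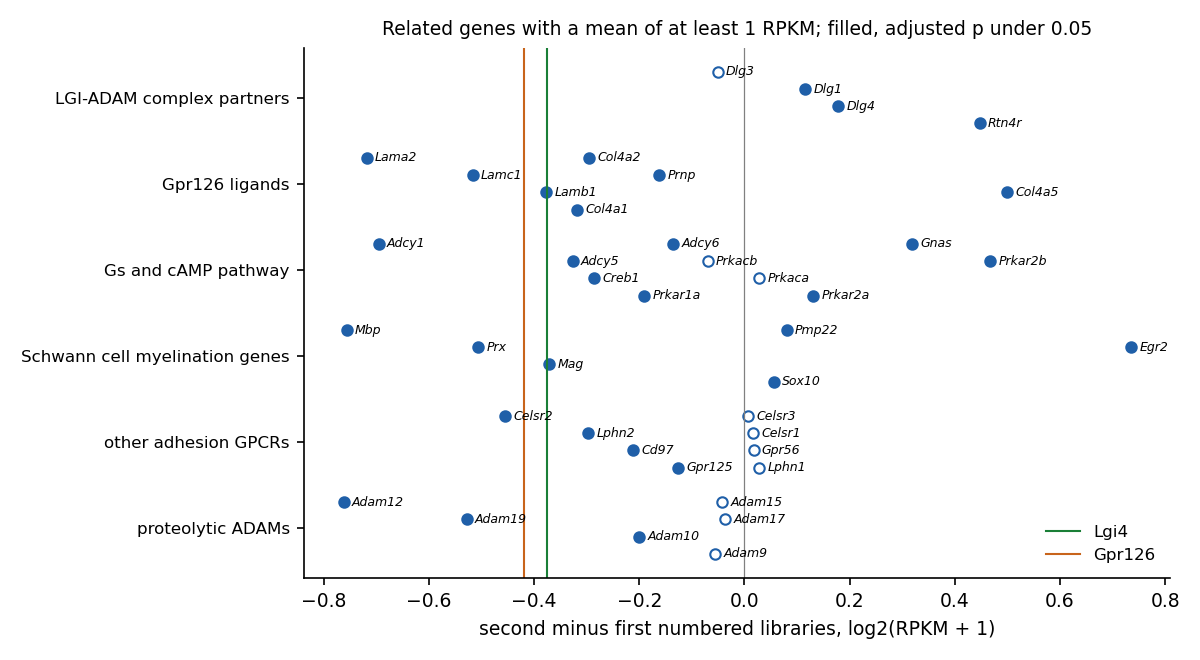
Difference between libraries numbered 2 and 1, in log2(RPKM + 1), for each tested gene of the 6 lists of related genes, filled where the adjusted p of limma was under 0.05, with vertical lines at the values of Lgi4 (-0.38) and Gpr126 (-0.42). The Gpr126 ligands lie to the left of 0 except Col4a5, and Mbp, Prx and Mag lie to the left of 0 while Egr2 lies to its right, and vertical offsets within a list only separate the labels.

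The genes most like Lgi4 and Gpr126 were sought by the Euclidean distance between profiles of log2(RPKM + 1), each centred on its own mean, over the 4 libraries. Among 1136 genes within 2-fold of the mean of Lgi4, the nearest were Col16a1 (distance 0.02), H2afx (0.04) and Fads2 (0.05). Col16a1, a collagen gene, was at 114, 89.1, 113 and 86.6 RPKM. Among 3154 genes within 2-fold of the mean of Gpr126, the nearest were Ctdspl2 (0.02), Pank3 (0.02) and Fdft1 (0.04). The distance between Lgi4 and Gpr126 themselves was 0.10. The neighbours were picked as the smallest distances among all candidates, so it is not a result that this pair lay farther apart. With 4 libraries, such profiles mostly repeat the difference between the numbers.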

How the data were processed

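Poly(A) RNA of 4 S16 libraries was sequenced by the authors as single ends of 50 bases, aligned to rn5 with STAR, limited to uniquely mapped reads and counted with HTSeq without strand, after FastQC. The authors deposited RPKM values for each gene symbol. The technical replicates were pooled for sequencing, per the methods, which state an approximate number of reads per cell line. The lengths and the exact totals that entered RPKM are not given in the sources used here, and the deposited files refer to RefSeq models although the methods state Ensembl. Counts were tested by the authors with DESeq2. No count test was run here, because the values used were RPKM.

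Library totals and whole reads were recovered from ratios of RPKM values, for 18114 of 18114 genes that 2 or more libraries listed above 0. The smallest fitting whole numbers were taken, and a factor shared by all libraries would not be seen. Of the totals, between 79.4% and 81.5% fell on listed genes. Intervals are exact 95% intervals (Clopper-Pearson for a library, conditional binomial for a ratio) and cover only the error of counting, because without molecular identifiers PCR copies of a molecule are counted separately. Values were averaged within a population first.

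Differences were computed on log2(RPKM + 1) with limma 3.58.1 in R 4.3.3 (eBayes with trend, two-sided, adjusted p under 0.05, 1 residual degree of freedom moderated over genes), and other values with Python 3.11.15, numpy 2.4.6, pandas 2.3.3, scipy 1.17.1 and matplotlib 3.10.9. The scripts were tested on simulated data. The members and lists were chosen with earlier results of these data known. The text names the 7 members, the up to 4 most abundant genes of each pathway list and every gene of such a list past the threshold. It also names 3 genes of like profile for Lgi4 and Gpr126, and some of the cell type markers. Genes named beyond this rule, such as Egr2's untested partner Pou3f1, the potassium channels, Adam11, Fxyd3, the genes listed at 0 and LOC102551208, were chosen after their values were seen. Alternatives were another pseudocount (0.1 RPKM), minimum or scaling, no trend, no population term and each library left out. A correction for length (20 bins of genes) and a minimum difference of 1 on the log2 scale were added after seeing the data. Some genes of the myelination and Schwann cell marker lists are not reported here. The mutant and clonal libraries were not analysed here, and no protein sequence was used here.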

Additional observations from a re-analysis of the deposited data

How the results depend on the processing

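The count of 8170 genes that differed between libraries numbered 2 and 1 was between 6527 and 8829 with another minimum, pseudocount, scaling or trend setting, and 8127 with no replicate block. With 1 library left out and no population term it was between 7482 and 7653. When a difference of at least 1 on the log2 scale was also required, an alternative added after seeing the data, 121 genes were left, without Lgi4 or Gpr126. The replicate block was the population, which has 1 library of each number, so the numbers were compared within only 2 pairs. Over 11025 genes, the differences between the numbers at the passages had a correlation of 0.943 (genes are not independent replicates).

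Lgi4 and Gpr126 kept their direction and call in 10 tested alternatives each, with adjusted p of limma between 1.3e-10 and 0.0014 for Lgi4 and between 1.5e-10 and 0.0011 for Gpr126. In 4 of these a library is left out, so that a number has 1 library, which is assumed to vary like the others. After the length correction, added later, they were at -0.59 and -0.32. Of 40 alternatives for the difference of the 5 genes above 0 between the numbers, 0 reversed and 5 moved, the length correction of these genes and a pseudocount of 0.1 RPKM for Lgi3 (1.17), Adam22 (-0.36) and Adam23 (-0.38). The 2-fold count between passages was 1, and 0 with a minimum of 5 RPKM. It was between 9 and 27 with 1 library left out, where a passage is then 1 library of a single number. The passage difference of each of the 5 genes took both signs when 1 library was left out, from -0.26 to 0.14 for Lgi4, -0.18 to 0.27 for Gpr126, -0.24 to 0.20 for Lgi3, -0.02 to 0.06 for Adam22 and -0.11 to 0.03 for Adam23. Each such value also carries the difference between the numbers, so these signs cannot settle the direction between passages. Low read numbers limited Lgi3, Adam22 and Adam23, the lowest with 10 reads.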

Other observations

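The following genes of the family of Gpr126 were chosen after their values were seen. Lphn3, a latrophilin known as a neuronal adhesion receptor, was at 0.689 and 0.743 RPKM (196 and 175 reads) in the libraries numbered 1 and at 0.0580 and 0.0708 RPKM (14 and 20 reads) in those numbered 2. Bai1, a receptor known for the uptake of dying cells, was at 0.678 and 0.673 RPKM (73 and 60 reads) in the libraries numbered 1 and at 0.197 and 0.140 RPKM (18 and 15 reads) in those numbered 2. On the scale of log2(RPKM + 1), in the limma fit without a minimum, the difference was -0.69 for Lphn3 (SE 0.04, adjusted p = 6.6e-05) and -0.52 for Bai1 (SE 0.04, adjusted p = 0.00024). That fit called 8829 of 20333 genes. Cdh19, a cadherin of the Schwann cell lineage, had the same order, with 1.77 and 1.67 RPKM in the libraries numbered 1 and 0.133 and 0.175 RPKM in those numbered 2. The libraries numbered 1 and 2 did not overlap in these genes, as in 65.7% of all genes above 0 in at least 1 library.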
